A study of Mus musculus with 3 samples.

Results

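Hox genes were followed through the E13–E13.5 mouse thymus by paralog group and by cluster. Members were all genes whose symbol is Hox, a cluster letter from a to d and a group number, which gave 39 of the 27998 genes in the files, with 11 in the HoxA, 10 in the HoxB, 9 in the HoxC and 9 in the HoxD cluster. Their UMIs, which are sequenced molecules counted once each, came from droplet single-cell RNA-Seq of 3 thymus libraries of C57BL/6 mice at a gestational age of 13 to 13.5 days. The control library was Wild type. A second library was labelled Tbx1neo2/neo2, a germline allele with a neomycin cassette inserted in an intron of Tbx1, and the other was labelled Foxn11089/1089, a germline allele with a short deletion in Foxn1. Each group was 1 library, so no difference below has a replicate check, every interval covers counting error only, and the number of embryos per library was not given in the sources used here.

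Hox genes encode homeodomain transcription factors that give cells an identity along the head-to-tail axis. Genes of the same number in different clusters are paralogs, and within a cluster the low numbers are switched on earliest and farthest toward the head, while higher numbers are used progressively farther toward the tail. The thymus forms from endoderm of the third pharyngeal pouch surrounded by neural crest mesenchyme, a region of low group numbers, and Hoxa3 is required there for thymus and parathyroid formation. On GRCm38 the HoxA cluster lies on the minus strand of chromosome 6, with the start of Hoxa13 at 52260880 and the end of Hoxa2 at 52162417. HoxB lies on chromosome 11 from Hoxb13 at 96194316 to the end of Hoxb1 at 96368256. HoxC lies on chromosome 15 from Hoxc13 at 102921103 to the end of Hoxc4 at 103036852, and HoxD on chromosome 2 from Hoxd13 at 74668310 to the end of Hoxd1 at 74765142.

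Cells were assigned to 4 classes by a single marker, Pdgfra for mesenchyme, Epcam for epithelium, Cdh5 for endothelium or Ptprc for blood lineages, and all values below are given in the order control, Tbx1neo2/neo2-labelled, Foxn11089/1089. Pdgfra-positive cells numbered 687, 1359 and 2251, Epcam-positive cells 1991, 789 and 3751, Cdh5-positive cells 50, 92 and 90, and Ptprc-positive cells 659, 264 and 318. In each class and library all 7 genes of that class's marker panel had a UMI in the summed cells. That is a weak check, since each panel includes the marker that defined the class. Depth differed between libraries, with a median of 9467, 25693 and 14325 UMIs per Pdgfra-positive cell and 16576, 45398 and 20192 per Epcam-positive cell, so levels are given as UMIs per 1000000 UMIs of the class (CPM). In the library labelled Tbx1neo2/neo2 the Tbx1 level was no lower than in the control. Tbx1 stood at 1.39, 4.81 and 5.43 CPM over all kept cells and at 5.16, 5.68 and 3.52 CPM in Pdgfra-positive cells, and every direction drawn from that library below rests on its label. The Foxn1 level checks nothing for a short deletion and was 83.9, 106 and 156 CPM in Epcam-positive cells.

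The promoters of 3 group 4 and group 5 genes described below are shown, from windows that overlap no annotated exon. Hoxa5 and Hoxb4 were higher in mesenchyme of the Tbx1neo2/neo2-labelled library and Hoxd4 was not. Hoxc4 was also higher there, but its window overlaps an annotated exon and is not shown. Each is the window of 250 bases before the RefSeq start on GRCm38, written 5′ to 3′ on the strand of the gene. Capitals mark AGGTCA, the core hexamer of retinoic acid receptor sites, or GACGC, the core of the FOXN1 site, each searched on both strands, so that TGACCT and GCGTC are the same letters read from the other strand.
Hoxa5 promoter, chr6:52204588-52204837, minus strand: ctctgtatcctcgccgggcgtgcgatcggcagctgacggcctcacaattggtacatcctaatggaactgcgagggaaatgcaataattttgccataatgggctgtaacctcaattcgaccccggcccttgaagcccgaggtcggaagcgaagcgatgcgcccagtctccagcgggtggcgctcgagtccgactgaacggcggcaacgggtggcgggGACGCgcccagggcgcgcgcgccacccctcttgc
Hoxb4 promoter, chr11:96318017-96318266, plus strand: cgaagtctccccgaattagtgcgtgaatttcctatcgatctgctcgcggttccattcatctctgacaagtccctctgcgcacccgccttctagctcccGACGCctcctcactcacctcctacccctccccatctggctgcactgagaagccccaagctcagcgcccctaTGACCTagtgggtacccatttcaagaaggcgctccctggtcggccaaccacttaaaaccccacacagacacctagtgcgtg
Hoxd4 promoter, chr2:74721728-74721977, plus strand: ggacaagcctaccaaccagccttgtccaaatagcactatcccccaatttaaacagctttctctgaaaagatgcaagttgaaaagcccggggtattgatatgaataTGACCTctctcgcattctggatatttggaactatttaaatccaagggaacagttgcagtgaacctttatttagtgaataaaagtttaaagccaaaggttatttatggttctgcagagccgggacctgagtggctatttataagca
The Hoxa5 window lies in introns of longer annotated Hoxa3 transcripts, the Hoxd4 window in introns of longer Hoxd3 and Hoxd4 transcripts, and the Hoxb4 window between genes. RefSeq windows matched 22 of the 39 genes, with 24 windows, and 17 genes had none. AGGTCA stood in 6 of the 24 Hox windows and in 14% of 32851 promoter windows of the same length, while GACGC stood in 8 of 24 and in 22.6%, with no overlap between matches of the 2 motifs in the Hox windows. Each of the 3 group 4 genes with a window, Hoxb4, Hoxc4 and Hoxd4, held AGGTCA, beginning 81, 146 and 145 bases before the start. GACGC began 34 bases before the start of Hoxa5 and 152 bases before that of Hoxb4. Matches are letters in a window and were not tied to binding by any value here.

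Mesenchyme held the most Hox transcript and blood lineages the least. Hox genes together made up 299 CPM (95% Poisson interval 286 to 312, 2088 UMIs), 504 CPM (497 to 512, 19098 UMIs) and 380 CPM (374 to 387, 13374 UMIs) of Pdgfra-positive cells. Epithelium stood at 77.9 CPM (74.9 to 80.9), 104 CPM (101 to 108) and 182 CPM (179 to 185). Endothelium had 118 CPM (95.3 to 144), 203 CPM (188 to 219) and 115 CPM (105 to 126) and blood lineages 19.9 CPM (17.6 to 22.5), 31.2 CPM (28.5 to 34.1) and 32.8 CPM (29.3 to 36.6). In each of the 3 libraries mesenchyme was highest and blood lineages lowest, while epithelium and endothelium changed places between libraries. Cells with over 80% hemoglobin UMIs, which should lack Hox transcripts, showed 1.24, 4.25 and 3.87 CPM.

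With every cell thinned to 5000 UMIs, 70.5%, 84.4% and 80.2% of Pdgfra-positive cells held a Hox UMI (88.5%, 99.1% and 97.5% unthinned). In Epcam-positive cells the thinned share was 30.4%, 40.0% and 55.9% (63.5%, 90.4% and 88.6% unthinned), in Cdh5-positive cells 34.9%, 64.7% and 43.7%, and in Ptprc-positive cells 7.48%, 13.3% and 14.5%. The thinned share in the hemoglobin cells, whose median depth was 9160, 18860 and 12514 UMIs, was 0.784%, 3.11% and 1.93%, below every class in every library. The map of levels by gene shows which members carried these sums.

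**Figure D1:**
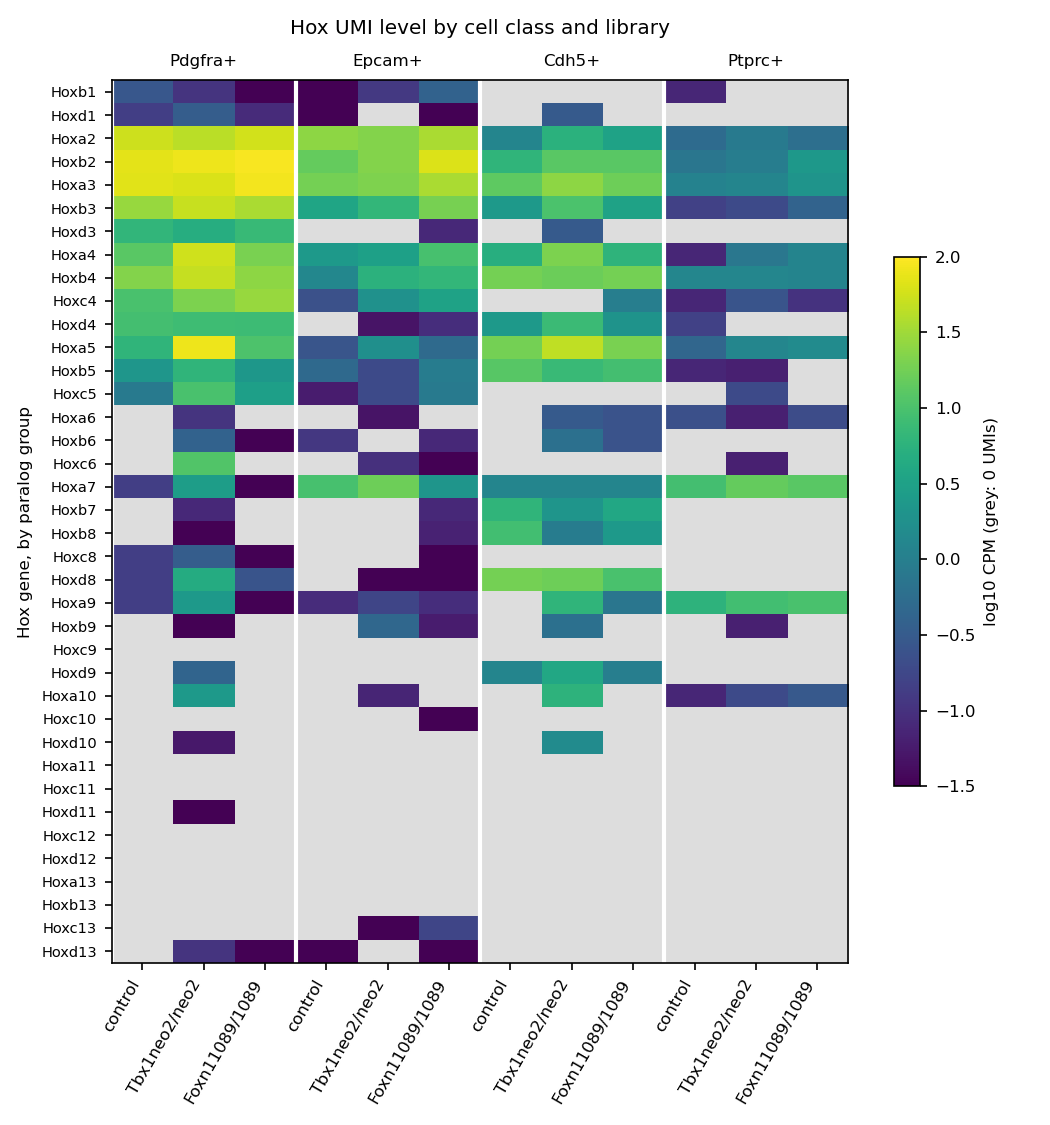
Level of Hox genes (rows, by paralog group) in each class and library (columns), as log10 CPM with the colour scale capped at -1.5 and 2; grey marks 0 UMIs. Groups 2 to 5 fill the mesenchyme and epithelium columns, Hoxa7 and Hoxa9 the blood columns, and most members above group 9 are grey.

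Low group numbers dominated mesenchyme and epithelium. Groups 1 to 3 supplied 78.5%, 49.3% and 74.3% of the Hox UMIs of Pdgfra-positive cells and 81.2%, 70.8% and 86.6% of those of Epcam-positive cells. Groups 4 and 5 supplied 21.3%, 45.8% and 25.6% in mesenchyme against 6.16%, 12.2% and 11.9% in epithelium. Mesenchyme of the Tbx1neo2/neo2-labelled library thus stood apart from the other 2 libraries, with group 5 at 3.07%, 19.2% and 4.16% of the UMIs and group 2 at 42.3%, 24.9% and 39.3%. In CPM group 5 stood at 9.17, 97.0 and 15.8, while group 2 stood at 126, 126 and 149. The level of group 2 in that library was thus like that of the control, and its share was lower because groups 4 to 13 held more UMIs. Groups 6 to 13 supplied 0.192%, 4.94% and 0.105% of mesenchymal Hox UMIs.

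Endothelium and blood lineages used higher numbers. In Cdh5-positive cells groups 4 and 5 supplied 48.4%, 48.0% and 49.1% and groups 6 to 13 supplied 30.5%, 19.9% and 17.5%, and in Ptprc-positive cells groups 6 to 13 supplied 76.0%, 76.6% and 70.9%. The mean group number weighted by UMIs was 2.81, 3.59 and 2.90 in mesenchyme, 3.05, 3.38 and 2.63 in epithelium, 5.14, 4.65 and 4.40 in endothelium and 6.69, 6.74 and 6.53 in blood lineages. The order from mesenchyme or epithelium through endothelium to blood lineages was the same in all 3 libraries.

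**Figure D2:**
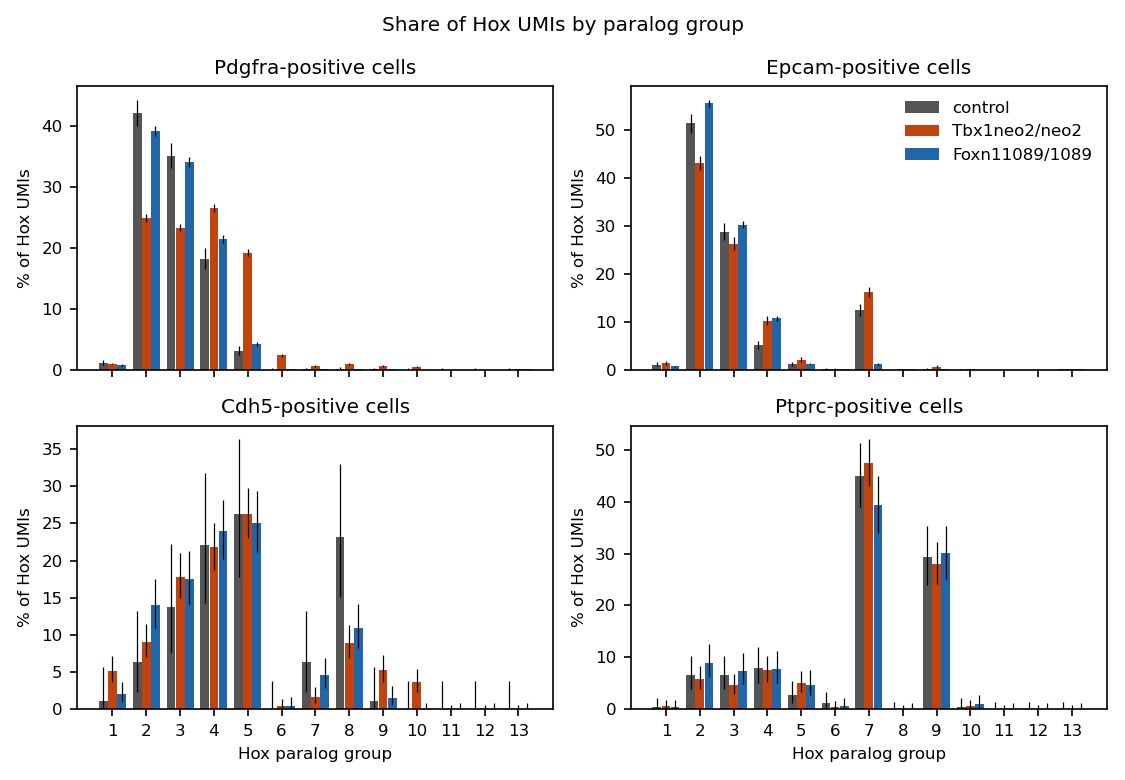
Percent of each class's Hox UMIs (vertical axis) by paralog group (horizontal axis), with 1 bar per library and 95% Clopper-Pearson intervals. Groups 2 and 3 are the tallest in Pdgfra- and Epcam-positive cells of the control, group 5 reaches 19.2% in Pdgfra-positive cells of the Tbx1neo2/neo2-labelled library, and group 7 stands out in Ptprc-positive cells.

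Clusters supplied unequal shares of the Hox UMIs. Exonic bases of Hoxd3 and Hoxd4 that are shared with other genes make the HoxD shares uncertain. HoxA and HoxB shared the mesenchymal UMIs, with 48.9%, 50.5% and 46.7% from HoxA and 42.3%, 37.6% and 40.8% from HoxB, while HoxC supplied 3.64%, 8.30% and 8.37% and HoxD 5.17%, 3.61% and 4.08%. HoxD was nearly undetected in epithelium, at 0.0756%, 0.0704% and 0.127% of Hox UMIs, although it supplied 18.9%, 15.3% and 11.4% in endothelium. Blood lineages drew 87.0%, 90.0% and 87.6% of their Hox UMIs from HoxA. In epithelium HoxA made up 73.1%, 64.0% and 46.3% of Hox UMIs and HoxB 26.4%, 33.9% and 51.2%, although both clusters stood above the control in CPM, at 56.9, 66.8 and 84.2 for HoxA and 20.6, 35.3 and 93.0 for HoxB. In endothelium HoxA made up 34.7%, 59.7% and 43.9% and HoxB 46.3%, 25.1% and 43.9%, with HoxB at 54.6, 50.8 and 50.4 CPM.

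Not every member was seen. In Pdgfra-positive cells 18 of 39 members had at least 30 UMIs over the 3 libraries and are called counted below, 12 had 1 to 29 UMIs (Hoxa6, Hoxb1, Hoxb6, Hoxb7, Hoxb8, Hoxb9, Hoxc8, Hoxd1, Hoxd9, Hoxd10, Hoxd11 and Hoxd13) and 9 had none (Hoxa11, Hoxa13, Hoxb13, Hoxc9, Hoxc10, Hoxc11, Hoxc12, Hoxc13 and Hoxd12). In Epcam-positive cells 13 were counted, 16 had 1 to 29 UMIs and 10 had none, among them Hoxa11, Hoxa13, Hoxb13 and the members Hoxd9 to Hoxd12. A count of 0 allows up to 0.43, 0.0792 and 0.0852 CPM in mesenchyme and 0.0884, 0.0734 and 0.0345 CPM in epithelium, taking 3 UMIs as the limit. UMIs are tags from 3′ ends and were not divided by length, so levels are compared between libraries and cells but not between genes. The group and cluster shares above are shares of UMIs and carry the same limit.

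In mesenchyme, Hox expression relative to the control was higher in both mutant-labelled libraries. Hoxc4 and Hoxc5, the counted members at least 2-fold higher in Foxn11089/1089, were also at least 2-fold higher in the Tbx1neo2/neo2-labelled library, which had further such members. The summed log2 ratio was 0.75 (0.69 to 0.82) for the Tbx1neo2/neo2-labelled library and 0.35 (0.28 to 0.41) for Foxn11089/1089, or 1.69-fold and 1.27-fold. The median log2 ratio over all genes counted in this class was 0.36 and 0.18, since CPM in these libraries is not centred, and changes are read against those medians. With median-of-ratios size factors the summed ratios were 0.47 and 0.21.

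Of the 18 counted members, 11 were at least 2-fold higher and 0 at least 2-fold lower in the Tbx1neo2/neo2-labelled library, where 17.4% of 14139 counted genes were 2-fold higher and 4.78% 2-fold lower. Since 5 of the 18 had under 3 UMIs in the control and were counted through another library, the 10 members with at least 30 control UMIs were also read alone, and 4 of these were 2-fold higher, against 8.89% of all genes filtered in the same way. In Foxn11089/1089 2 members, Hoxc4 and Hoxc5, were 2-fold higher (7.44% of all genes) and 4 were listed as 2-fold lower (5.81% of all genes). Those 4, Hoxa7, Hoxa9, Hoxa10 and Hoxc6, had 0 or 1 UMI in both libraries, so no fold is given for them. The median log2 ratio over all 18 counted members was 1.32 for the Tbx1neo2/neo2-labelled library and 0.17 for Foxn11089/1089. Both medians include the 5 members counted only through the Tbx1neo2/neo2-labelled library, which raises its median. The Foxn11089/1089 median also includes the 4 members for which no fold is given. Neither median is therefore set against that of all genes.

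**Figure D3:**
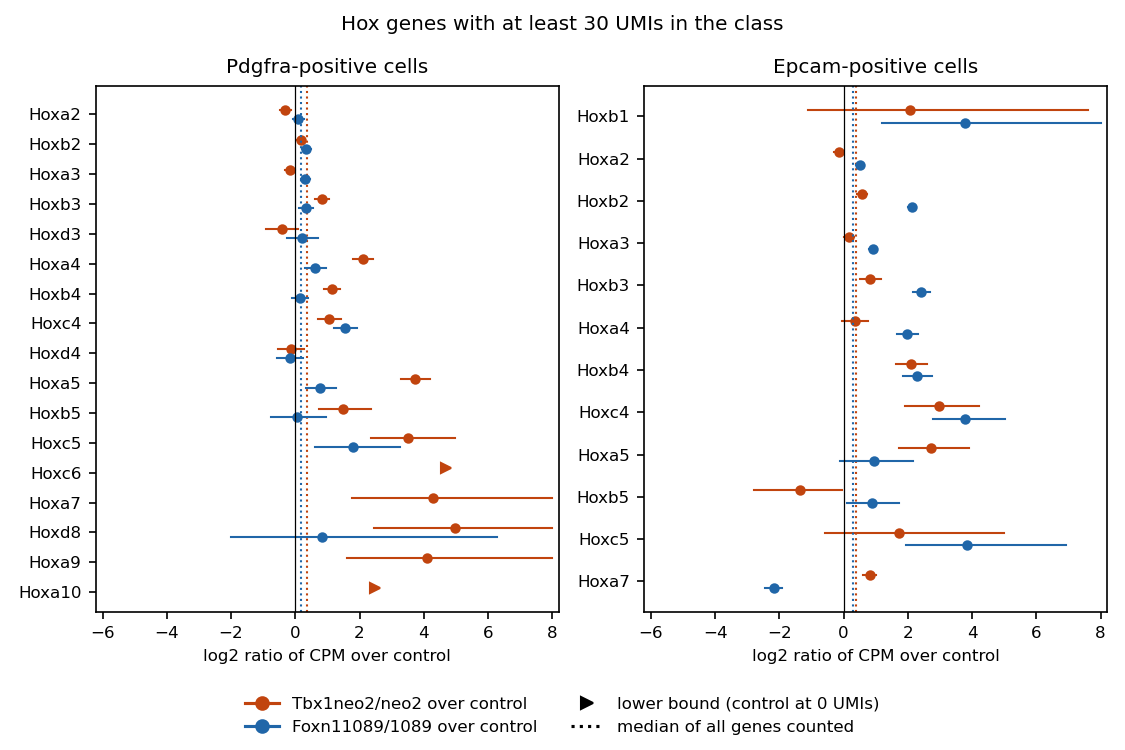
Log2 ratio of CPM over the control (horizontal axis) for counted Hox genes in Pdgfra-positive (left) and Epcam-positive (right) cells, ordered by paralog group, with 95% conditional binomial intervals clipped at -6 and 8; triangles are lower bounds against 0 control UMIs and dotted lines are the medians of all counted genes. On the left the orange points of Hoxa4, Hoxb4, Hoxc4 and the genes of higher groups lie to the right of 0 while Hoxd4 stays near it, and on the right Hoxa7 is the blue point farthest to the left, at -2.18.

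The counted group 2 and 3 genes, which mark hindbrain and pharyngeal arch levels, differed from the control by less than 2-fold in mesenchyme. Hoxa2, which patterns second arch neural crest, stood at 53.6, 43.3 and 57.1 CPM, so that its log2 ratios were -0.31 (-0.47 to -0.14) and 0.09 (-0.07 to 0.26). Hoxa3, the thymus gene of the third arch, stood at 70.3, 62.6 and 87.1 CPM (-0.17 and 0.31), and Hoxb2 at 72.9, 82.5 and 92.1 CPM (0.18 and 0.34). For Hoxa2 and Hoxa3 the Tbx1neo2/neo2-labelled ratio was below the all-gene median, and across the alternative settings it ranged from -0.59 to 0.15 and from -0.45 to 0.18. Thinned to 5000 UMIs, Hoxa3 was found in 26.4%, 25.3% and 33.1% of these cells.

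Hoxb3 was the member of these groups with the highest ratio in the Tbx1neo2/neo2-labelled library among those with at least 30 control UMIs, at 28.5, 50.4 and 35.7 CPM (0.82, 0.61 to 1.04, and 0.33, 0.11 to 0.55). Hoxd3 had 6.30, 4.73 and 7.25 CPM (-0.41, -0.90 to 0.10, and 0.20). On the same strand Hoxd3 and Hoxd4 share 62.3% and 52.3% of their exonic bases with each other or with Gm28230. The split of UMIs between them is thus uncertain. Hoxa2 and Hoxa3 share 15% and 8.01% with the readthrough locus Gm28308.

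Group 4 differed by cluster. Hoxa4 was at 12.9, 55.2 and 19.9 CPM, a log2 ratio of 2.10 (1.79 to 2.42) in the Tbx1neo2/neo2-labelled library and 0.63 (0.31 to 0.96) in Foxn11089/1089. Hoxb4, whose promoter is shown above, was at 22.8, 50.0 and 25 CPM (1.13, 0.90 to 1.38, and 0.14). Hoxc4 was 9.88, 20.5 and 28.8 CPM (1.06, 0.70 to 1.43, and 1.54, 1.19 to 1.92) and so was the group 4 member that was higher in both libraries by 2-fold or more. Hoxd4 was level, at 8.88, 8.08 and 7.87 CPM (-0.14 and -0.17), and its promoter holds the same AGGTCA hexamer as Hoxb4 and Hoxc4.

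Hoxa5, which marks neck and respiratory tract mesenchyme and is needed for trachea and lung formation, differed most among the members with at least 30 control UMIs. It had 43, 3075 and 372 UMIs, or 6.16, 81.2 and 10.6 CPM, in Pdgfra-positive cells. That was 13.2-fold in the Tbx1neo2/neo2-labelled library (log2 3.72, 3.29 to 4.19) and a log2 ratio of 0.78 (0.32 to 1.27) in Foxn11089/1089. After thinning, 2.16%, 22.1% and 2.57% of the cells held a Hoxa5 UMI, against 0% (0 of 255 cells, which allows up to 1.18%), 0.311% and 0.107% of hemoglobin cells. The log2 ratio in the Tbx1neo2/neo2-labelled library ranged from 1.74 to 6.12 over the alternative settings. The highest value came from cells called male, described below, where the control had 1 Hoxa5 UMI. Hoxc5 moved with it, at 6, 369 and 105 UMIs (3.50, 2.37 to 4.96, and 1.80, 0.63 to 3.27), with 5.37% of its exonic bases shared with Hoxc10, while Hoxb5 had 15, 230 and 79 UMIs (1.5, 0.75 to 2.36, and 0.06).

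Genes of groups 6 to 13, which pattern the trunk and limbs, were almost confined to 1 library in this class. Hoxc6 had 0, 425 and 0 UMIs, at 11.2 CPM at least 26.1-fold higher in the Tbx1neo2/neo2-labelled library than the control, and was spread over 144 cells. Hoxd8 had 1, 169 and 9 UMIs, a log2 ratio of 4.96 whose interval, 2.46 to 10.27, is wide because the control held 1 UMI. Hoxa7 had 1, 105 and 1 UMIs, Hoxa9 had 1, 94 and 1, and Hoxa10 had 0, 91 and 0, at least 5.59-fold higher. The 12 members with fewer UMIs added little in any library.

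Within the Tbx1neo2/neo2-labelled library the levels of Hoxa5 and of the trunk gene Hoxc6 differed in their order between cells led by different marker lists. Pdgfra-positive cells in which at least 3 genes of a cartilage list were found and led, 0, 105 and 19 in the 3 libraries, held 813 CPM of Hox transcript in the Tbx1neo2/neo2-labelled library and 633 CPM in Foxn11089/1089. In the former, Hoxa5 stood at 311 CPM and Hoxa4 at 166 CPM, while Hoxc6 had 1 UMI and Hoxd8 and Hoxa10 had 0. Cells led by none of the lists, 613, 868 and 1953, held Hoxa5 at 6.08, 83.1 and 11.3 CPM, Hoxc6 at 0, 14.8 and 0 CPM, and Hoxd8 at 0.164, 6.31 and 0.169 CPM. Hoxa5 was thus also higher in the Tbx1neo2/neo2-labelled library in the cells led by none of the lists. Those cells include any with tied lists or with under 3 genes of each list, so cells with cartilage genes can remain among them. The part of cartilage cells in the difference was not tested. Cells led by a smooth muscle and pericyte list, 61, 359 and 252, held Hoxa5 at 8.80, 28.2 and 5.09 CPM and Hoxc6 at 0, 5.83 and 0 CPM.

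Hoxa4 and Hoxb4 were found together with Hoxa5 in single cells of every library. At 5000 UMIs per cell Hoxa4 was found in 50%, 48.0% and 63.2% of the Hoxa5-holding cells, which numbered 14, 298 and 57, and in 4.89%, 8.48% and 4.30% of the others. Hoxb4 was found in 50%, 33.6% and 56.1% of them and in 9.62%, 18% and 8.60% of the others. Hoxc6 went the other way in the library that held it, in 1.34% of Hoxa5-holding cells and 6.10% of the others, and Hoxd8 in 0.336% and 2.38%. Hoxa7 did not share this order, in 1.68% (0.547% to 3.87%) of Hoxa5-holding cells and 0.857% (0.393% to 1.62%) of the others.

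Cells with at least 2 Hoxa5 UMIs also differed in other genes, chosen after seeing the data. In the Tbx1neo2/neo2-labelled library the 387 such cells had 279 CPM of Sox9, the cartilage and airway progenitor factor, against 25.9 CPM in the 881 cells with none. Foxf1, a gut and lung mesenchyme factor, was 45 against 3.05 CPM, Tbx4, a lung and limb mesenchyme factor, 21.1 against 0.853 CPM, and its relative Tbx5 66.7 against 18.0 CPM. Fgf10 and Wnt2, signals of lung mesenchyme, went the other way, at 15.6 against 30.7 CPM and 3.40 against 6.95 CPM. In Foxn11089/1089 the 56 such cells had 78.4 against 41.9 CPM of Sox9 and 15.1 against 0.774 CPM of Foxf1. The control had 10 such cells, with Sox9 at 71.1 against 34.7 CPM and Foxf1 at 0 against 1.34 CPM.

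The sex of the cells moved with these genes. Among Pdgfra-positive cells of at least 10000 UMIs, 93, 129 and 572 were called female from Xist and 52, 1043 and 993 male from Y-linked genes. In cells called male Hoxa5 was at 1.28, 89.3 and 5.07 CPM, and in cells called female at 4.62, 15.5 and 22.2 CPM. The control values rest on 1 Hoxa5 UMI in male and 6 in female cells. Hoxc6 was at 12.2 CPM in male cells of the Tbx1neo2/neo2-labelled library and had 0 UMIs in its 129 female cells. Groups 6 to 13 supplied 0% (0% to 1.02%), 0.130% and 0.128% of the Hox UMIs of female cells. In male cells they supplied 1.03% (0.124% to 3.66%), 5.10% and 0.0706%. The summed log2 ratio was 0.51 in female and 1.04 in male cells of the Tbx1neo2/neo2-labelled library, and in female cells 4 of 12 counted members were 2-fold higher, with 17.3% of all genes, where 11 of 18 were in the class as a whole. Sex, embryo and dissected tissue cannot be told apart within a library.

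**Figure D4:**
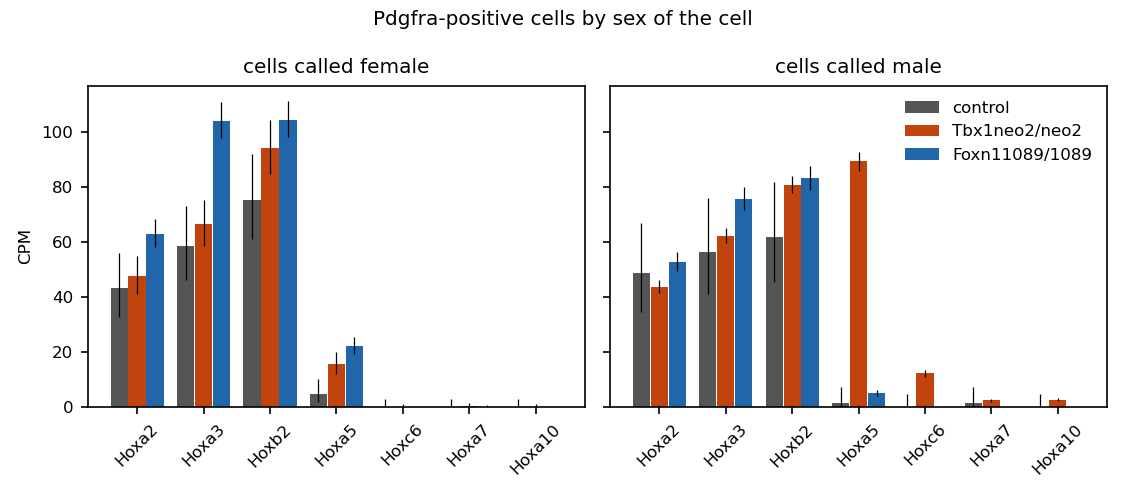
Level of 7 Hox genes in CPM (vertical axis) in Pdgfra-positive cells called female (left) and male (right), with 1 bar per library and 95% Poisson intervals. Hoxa2, Hoxa3 and Hoxb2 are present in both panels in all libraries, while Hoxa5 stands at 89.3 CPM and Hoxc6 at 12.2 CPM in the male cells of the Tbx1neo2/neo2-labelled library.

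Lists of other cell types also moved with this library. In Pdgfra-positive cells the smooth muscle and pericyte list summed to 316, 1065 and 297 CPM, the cartilage list to 64.9, 207 and 102 CPM, the glia and neuron list to 497, 196 and 403 CPM, and the respiratory mesenchyme genes, added after seeing the data, to 51.3, 87.9 and 74.7 CPM. Cells of other tissues were then left out, as those with at least 3 genes of the skeletal muscle, cartilage, glia and neuron, heart muscle, airway or thyroid list. The summed Hox log2 ratio of this library was then 0.69, and groups 6 to 13 supplied 5.69% of its Hox UMIs. The smooth muscle and pericyte list and the respiratory mesenchyme genes were not used to leave cells out. The part of any of these lists in the difference was not tested.

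In epithelium it was the Foxn11089/1089 library that differed most. The summed log2 ratio was 0.42 (0.35 to 0.49) for the Tbx1neo2/neo2-labelled library and 1.22 (1.16 to 1.28) for Foxn11089/1089, or 1.34-fold and 2.33-fold, with an all-gene median of 0.38 and 0.28. Under median-of-ratios size factors these were 0.07 and 0.98. Of 13 counted members, 5 were at least 2-fold higher and 1 at least 2-fold lower in the Tbx1neo2/neo2-labelled library, where 17.3% of 15396 counted genes were higher and 6.27% lower. In Foxn11089/1089 7 were higher and 1 lower, against 17.7% and 8.87% of all genes. The 7 members with at least 30 control UMIs gave 1 higher and 0 lower in the former, where 13.1% and 5.08% of genes so filtered were called, and 4 higher and 1 lower in the latter, where 12.2% and 8.58% were. For the Tbx1neo2/neo2-labelled library 1 of 7 is near the share of all genes. The median over the counted members was 0.81 and 1.98, with Hoxb1 and Hoxc5, which had under 3 control UMIs, included.

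Hoxb2 and Hoxb3, neighbours in the HoxB cluster, were both more than 2-fold higher in Foxn11089/1089 epithelium. Hoxb2 stood at 15, 22.4 and 65.5 CPM, a log2 ratio of 2.13 (2.0 to 2.26) in Foxn11089/1089 that ranged from 1.89 to 2.21 over the settings. It was found in 6.45%, 9.71% and 26.8% of cells thinned to 5000 UMIs, against 0%, 0.621% and 0.588% of hemoglobin cells. Hoxb3 stood at 3.65, 6.51 and 19.4 CPM (2.41, 2.15 to 2.69, in Foxn11089/1089). In the Tbx1neo2/neo2-labelled library their ratios were 0.58 and 0.83, but -0.85 and -0.42 with thymic list cells alone. Hoxb1, a group 1 gene, had 1, 5 and 35 UMIs, a log2 ratio in Foxn11089/1089 of 3.77 with an interval of 1.20 to 9.12.

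Hoxa2 and Hoxa3 were less far from the control. Hoxa2 stood at 25.1, 22.6 and 35.6 CPM, with log2 ratios of -0.15 and 0.51 (0.40 to 0.62). Hoxa3 stood at 18.7, 20.9 and 35.5 CPM (0.16 and 0.92, 0.80 to 1.05), and in the Tbx1neo2/neo2-labelled library its ratio ran from -0.19 to 0.56 over the settings. Both were above the all-gene median in Foxn11089/1089 and below it in the Tbx1neo2/neo2-labelled library.

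Group 4 genes were higher in Foxn11089/1089 epithelium in all 3 clusters counted. Hoxa4 was at 2.42, 3.08 and 9.55 CPM (0.35 and 1.98, 1.65 to 2.33), Hoxb4 at 1.33, 5.63 and 6.50 CPM (2.09, 1.62 to 2.58, and 2.29, 1.85 to 2.77), and Hoxc4 had 8, 75 and 283 UMIs (2.96, 1.91 to 4.23, and 3.79, 2.79 to 5.01). Hoxb4 in the Tbx1neo2/neo2-labelled library depended on the cells taken: it was at 0.415, 0.953 and 4.30 CPM in cells led by the thymic list, 1.86, 42.8 and 7.46 CPM in cells led by no list, and its log2 ratio was -0.75 in female cells alone. Of group 5, Hoxa5 had 9, 72 and 44 UMIs (2.73, 1.73 to 3.92, and 0.93, -0.12 to 2.15), Hoxc5 2, 8 and 74 (1.73 and 3.85, 1.95 to 6.93), and Hoxb5 17, 8 and 80 (-1.35, -2.78 to -0.06, and 0.88, 0.11 to 1.73). Hoxb5 was the member 2-fold lower in the Tbx1neo2/neo2-labelled library, on 8 UMIs, and its log2 ratio was 0.06 in male cells alone.

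Hoxa7 was the counted trunk gene of epithelium and the member lower in Foxn11089/1089. It had 327, 688 and 185 UMIs, or 9.63, 16.8 and 2.13 CPM, with log2 ratios of 0.81 (0.61 to 1.0) and -2.18 (-2.45 to -1.91). Over the settings the Foxn11089/1089 ratio ran from -2.57 to -1.29. It was found in 4.80%, 8.14% and 0.819% of thinned cells and in 0 of 255, 322 and 1870 hemoglobin cells, which allows a share of up to 1.18%, 0.932% and 0.160%. Its neighbour Hoxa9 had 3, 7 and 8 UMIs in these cells, or 0.0884, 0.171 and 0.092 CPM, although blood lineages held it at 5.85, 8.67 and 9.84 CPM. Hoxa7 supplied nearly all of groups 6 to 13 in epithelium, which made up 12.7%, 17.0% and 1.52% of Hox UMIs with it and 0.303%, 0.868% and 0.354% without it.

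Cells that held Hoxa7 had more thymic epithelial transcript on average than cells without it. Cells with at least 2 Hoxa7 UMIs, 79, 101 and 38 in number, held the thymic list at 3794 against 1779 CPM in the control, 3818 against 1731 CPM in the Tbx1neo2/neo2-labelled library and 997 against 846 CPM in Foxn11089/1089. Ccl25, the thymocyte-attracting chemokine that FOXN1 activates, stood at 1693 against 544 CPM, 1276 against 427 CPM and 141 against 92.9 CPM. Foxn1 itself was at 155 against 80.7 CPM, 214 against 90.5 CPM and 267 against 154 CPM. The parathyroid list was at 10.9 against 1014 CPM in the control and 3230 against 7095 CPM in Foxn11089/1089. Genes of the T lineage list were no higher in these cells, at 31.7 against 96.6 CPM in the control, 60.7 against 60.6 CPM in the Tbx1neo2/neo2-labelled library and 45.6 against 53.0 CPM in Foxn11089/1089.

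Hoxb2 and Hoxa7 were seldom in the same epithelial cell outside Foxn11089/1089. Hoxb2 was found in 1.08%, 1.61% and 34.5% of the thinned Hoxa7-holding cells, which numbered 93, 62 and 29, and in 6.72%, 10.4% and 26.7% of the others. The share of Hoxb2 was thus lower beside Hoxa7 in the control and the Tbx1neo2/neo2-labelled library and not in Foxn11089/1089, but the intervals overlap in each library. They were 0.0272% to 5.85% against 5.62% to 7.97% in the control and 0.0408% to 8.66% against 8.26% to 12.9% in the Tbx1neo2/neo2-labelled library. In Foxn11089/1089 they were 17.9% to 54.3% against 25.3% to 28.2%. Hoxa2 was more frequent beside Hoxa7 in every library, in 17.2%, 24.2% and 37.9% of the Hoxa7-holding cells and in 11.1%, 10.4% and 15.8% of the others. Its intervals in the control also overlap, at 10.2% to 26.4% against 9.72% to 12.6%.

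The epithelial lists separated the Hox genes further. The thymic list led in 1538, 583 and 1474 cells, and in these Hoxb2 was at 14.5, 8.02 and 67.0 CPM, Hoxb3 at 2.64, 1.97 and 19.3 CPM, and Hoxa7 at 11.7, 22.5 and 2.85 CPM. The summed level of this list is itself lower in Foxn11089/1089, so the cells it leads need not be alike between libraries. Hoxa3 was at 19.7, 24.5 and 40.8 CPM and Hoxa2 at 28.6, 28.7 and 45.4 CPM there. The thymic list itself summed to 1870, 1981 and 848 CPM over all Epcam-positive cells, the parathyroid list to 950, 0.808 and 6992 CPM, and the thyroid list to 4.12, 293 and 5.03 CPM, and the part of this makeup in the class totals was not tested.

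The parathyroid list led in 22, 0 and 270 cells. In the Foxn11089/1089 cells among them Hoxa3, which parathyroid formation requires, was at 32.6 CPM, Hoxb2 at 49.9 CPM, Hoxb3 at 23.1 CPM and Hoxa7 at 0.378 CPM. The thyroid list led in 4, 101 and 6 cells. Its 101 cells in the Tbx1neo2/neo2-labelled library held Hoxb2 at 71.5 CPM (446 UMIs) and Hoxb3 at 12.5 CPM but only 3 UMIs each of Hoxa2 and Hoxa3 and 0 of Hoxa7, a pattern of HoxB without HoxA. Cells led by no list, 334, 95 and 1831, held Hoxc4 at 0.372, 12.2 and 3.05 CPM and Hoxb3 at 5.58, 28.4 and 17.3 CPM.

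**Figure D5:**
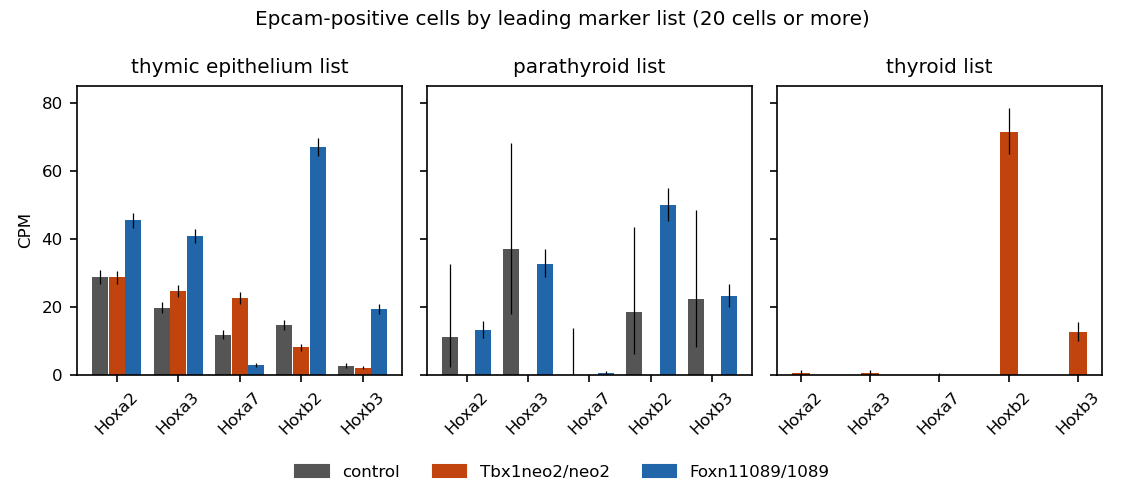
Level of 5 Hox genes in CPM (vertical axis) in Epcam-positive cells led by the thymic, parathyroid or thyroid list, with 1 bar per library of at least 20 such cells and 95% Poisson intervals. In the thymic list cells Hoxb2 is tallest in Foxn11089/1089 (67.0 CPM) and Hoxa7 in the Tbx1neo2/neo2-labelled library (22.5 CPM), and in the thyroid list cells Hoxb2 stands with almost no Hoxa2 or Hoxa3.

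Endothelium, with 50, 92 and 90 cells, gave few UMIs. The summed log2 ratio was 0.78 (0.47 to 1.11) and -0.04 (-0.36 to 0.30), with all-gene medians of 0.43 and 0.26, and 0.43 for the Tbx1neo2/neo2-labelled library under median-of-ratios size factors. Here 11 members were counted, 13 had 1 to 29 UMIs and 15 had none, and no member had 30 UMIs in the control. Hoxa5 had 15, 150 and 79 UMIs, or 18.6, 45.9 and 19.8 CPM (1.30, 0.54 to 2.18, and 0.09), and 1 cell of the Tbx1neo2/neo2-labelled library held 28 of the 150. Hoxb4 and Hoxd8, with 15, 53 and 74 and with 15, 56 and 40 UMIs, gave log2 ratios of -0.20 and -0.00 and of -0.12 and -0.89. Hoxb5 had 10, 24 and 36 UMIs (-0.76 and -0.46). Hoxd8 and Hoxb5 were thus low or level in the library in which Hoxa5 was high.

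The other counted endothelial members had 5 UMIs or fewer in the control except Hoxa3, with 11, 84 and 67 UMIs (0.91 and 0.30). Hoxa4 had 4, 66 and 24 UMIs (2.03, 0.60 to 3.94, and 0.28) and Hoxb2 5, 42 and 51 (1.05 and 1.05). Hoxa2, Hoxb3 and Hoxd4 had 1 or 2 control UMIs and 18 to 33 in the Tbx1neo2/neo2-labelled library. An arterial list, which summed to 501, 960 and 285 CPM in this class, led in 14, 59 and 37 cells, where Hoxa5 was at 4.52, 64.1 and 21.4 CPM. In endothelial cells led by no list Hoxa5 was at 21.9, 22.1 and 16.5 CPM and all Hox genes at 106, 112 and 103 CPM. The control value in arterial list cells is 1 UMI, with an interval of 0.114 to 25.2 CPM. A lymphatic list led in 1, 5 and 2 cells, which held 2, 29 and 0 Hoxa5 UMIs, and its 5 cells in the Tbx1neo2/neo2-labelled library were at 71.7 CPM.

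Blood lineages used Hoxa7 and Hoxa9, which act in blood stem and progenitor cells. Hoxa7 had 118, 229 and 127 UMIs, or 8.96, 14.8 and 12.9 CPM (0.73, 0.40 to 1.06, and 0.52, 0.15 to 0.90). Hoxa9 had 77, 134 and 97 UMIs, or 5.85, 8.67 and 9.84 CPM (0.57 and 0.75). Both were above the control by more than the all-gene medians of 0.34 and 0.23, and these were the 2 members with at least 30 control UMIs of 6 counted. The others were Hoxa3 with 15, 19 and 20 UMIs (0.11 and 0.83), Hoxa5 with 6, 20 and 15 (1.51 and 1.74), Hoxb2 with 10, 15 and 23 (0.35 and 1.62) and Hoxb4 with 17, 20 and 12 (0.00 and -0.08). The remaining members were 13 with 1 to 29 UMIs and 20 with none.

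The summed log2 ratio in blood lineages was 0.65 (0.43 to 0.87) and 0.72 (0.48 to 0.96), but 0.32 under median-of-ratios size factors for the Tbx1neo2/neo2-labelled library and 1.88 and 1.91 after thinning. Within the class the makeup differed. Cells led by a T lineage list, 350, 140 and 97, held Hoxa7 at 2.89, 8.66 and 8.92 CPM and Hoxa9 at 1.51, 4.09 and 4.46 CPM. Cells led by a blood progenitor list, 87, 42 and 46, held more of both, with Hoxa7 at 25.6, 32.8 and 23.7 CPM and Hoxa9 at 12.8, 24.6 and 20.2 CPM. Cells led by a macrophage list, 16, 33 and 27, held 0 UMIs of either. The macrophage list summed to 131, 610 and 466 CPM, the T lineage list to 891, 791 and 304 CPM and the progenitor list to 175, 286 and 242 CPM, and the part of this makeup was not tested.

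Genes that act with or upstream of Hox genes were read from lists written for this purpose, and no list was tested. The shares of all counted genes that were 2-fold higher and lower in mesenchyme were 17.4% and 4.78% for the Tbx1neo2/neo2-labelled library and 7.44% and 5.81% for Foxn11089/1089, and in epithelium 17.3% and 6.27%, and 17.7% and 8.87%. TALE cofactors, the Pbx and Meis proteins that bind DNA with Hox proteins, had 9 counted genes in mesenchyme, of which 2 were 2-fold higher in the Tbx1neo2/neo2-labelled library and 1 in Foxn11089/1089 (medians 0.64 and 0.41, against 0.36 and 0.18 over all genes). In epithelium 2 and 3 of 9 were 2-fold higher (0.70 and 0.73, against 0.38 and 0.28). Meis1 stood at 117, 223 and 191 CPM in mesenchyme and 42.0, 66.5 and 69.8 CPM in epithelium. Polycomb and trithorax genes, which hold Hox clusters off or on, had 1 of 17 and 0 of 17 higher in mesenchyme, with medians of 0.58 and 0.45 that lay above those of all genes, and 3 of 18 and 2 of 18 higher and 0 and 1 lower in epithelium (0.62 and 0.31).

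Retinoic acid and other upstream regulators had 13 counted genes in epithelium. In Foxn11089/1089 7 were 2-fold higher and 1 lower (median 1.49), where 17.7% and 8.87% of all genes were, and in the Tbx1neo2/neo2-labelled library 4 were higher and 2 lower (0.37), where 17.3% and 6.27% were. Egr2, which activates group 2 genes in the hindbrain, stood at 3.06, 12.9 and 23.8 CPM. Aldh1a3, which makes retinoic acid, was at 8.36, 2.42 and 27 CPM. In mesenchyme the same list had 11 counted genes, of which 1 was higher and 1 lower in the Tbx1neo2/neo2-labelled library and 1 higher in Foxn11089/1089 (0.38 and 0.16), with Aldh1a2, the main mesenchymal retinoic acid enzyme, at 77.0, 68.7 and 128 CPM.

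Partners of Hoxa3 in pouch development made up a further list. Of 5 counted genes 3 were 2-fold higher in Foxn11089/1089 epithelium (median 1.12), where 17.7% of all genes were, and 0 in the Tbx1neo2/neo2-labelled library (0.73), where 17.3% were. Eya1 was at 25.3, 41.8 and 76.2 CPM and Six4 at 25.3, 43.2 and 54.9 CPM. Pax1 and Pax9, which also act in pouch endoderm, were at 659, 821 and 575 CPM and 152, 130 and 217 CPM. Mesenchyme had 5 counted partners with 1 higher in each comparison (0.66 and 0.80).

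Noncoding genes inside the clusters were few. Of 6 counted in epithelium, 1 was higher and 1 lower in the Tbx1neo2/neo2-labelled library and 3 higher and 2 lower in Foxn11089/1089, where the shares of all genes were 17.3% and 6.27%, and 17.7% and 8.87%. Hotairm1, from the HoxA cluster, was at 48.7, 23.9 and 17.3 CPM in epithelium and 79.5, 49.4 and 40.5 CPM in mesenchyme, lower in both mutant-labelled libraries. Hoxb3os was at 15.4, 11.2 and 38.7 CPM and Hoxaas3, which lies on the other strand of Hoxa3 and Hoxa5, at 13.1, 8.74 and 29.4 CPM in epithelium. In mesenchyme Hoxb5os was at 0.286, 2.30 and 0.341 CPM and Haglr, from the HoxD cluster, at 5.16, 2.17 and 4.21 CPM, and of 6 counted there 2 were higher and 1 lower in the Tbx1neo2/neo2-labelled library and 0 of either in Foxn11089/1089.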

How the data were processed

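Thymus cells of 3 libraries, 1 per genotype, were profiled by droplet RNA-Seq. The authors deposited UMI counts per gene and cell barcode, unnormalized, and the submitters' processing notes name Cell Ranger 3.0.0, Seurat and mm10. From the 6410, 5759 and 12447 barcodes (82936619, 137498422 and 204655055 UMIs), 478, 243 and 675 were removed for a gene number below 200 or a mitochondrial share of 20% or above. Kept cells with under 20% hemoglobin UMIs were classed by at least 2 UMIs of Pdgfra, Epcam, Cdh5 or Ptprc and fewer than 2 of the others, and cells with several markers, which include doublets, were not used (Scrublet was an alternative). No column of values was left unmapped.

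Counts were summed per class and library and given as CPM, with exact Poisson intervals for levels, Clopper-Pearson intervals for shares and conditional binomial intervals for log2 ratios, all at 95%. For log2 ratios 0.5 UMI was added to both sums only where 1 of them was 0. A gene was counted with at least 30 UMIs over the 3 libraries, and every other Hox gene counted in a class was given in full up to 15 per class by UMIs and otherwise by its range. Values of 1 counted Hox gene and of some related genes are not reported here, although the sums and counts include them. Of the related lists at most 6 genes by UMIs were named. Cells were thinned to 5000 UMIs for shares of cells, with classes called before thinning. For the ratios, counts of members and group shares given after thinning, classes were called again from the thinned UMIs. A cell was led by a marker list where at least 3 of its genes were found and it had the most. Sex was called in cells of at least 10000 UMIs with at least 2 UMIs of Xist or of Y-linked genes. Libraries shared 17, 18 and 28 barcodes in pairs, and 1 barcode was in all. With 1 library per group no test was made, and the scripts were tested on simulated data. The members and lists were chosen with earlier results of these data known. The hemoglobin class over 80%, the split by sex, the respiratory genes, the splits by Hoxa5 and Hoxa7, the thymic list cells alone and the filter on control UMIs were added after seeing the data. Promoter windows came from RefSeq and gene positions from GENCODE, both on GRCm38. Python 3.11.15, numpy 2.4.6, scipy 1.17.1, pandas 2.3.3, scanpy 1.11.5 and matplotlib 3.10.9 were used.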

Additional observations from a re-analysis of the deposited data

Results flagged for a closer look

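Hoxb5 had a log2 ratio of 1.5 in Pdgfra-positive cells and of -1.35 in Epcam-positive cells for the library labelled Tbx1neo2/neo2 over the control, with intervals on opposite sides of 0, and the difference between the classes was not tested. The counts behind it were 15 and 230 UMIs in mesenchyme and 17 and 8 in epithelium.

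Hoxa11, a limb and posterior trunk gene with 0 UMIs in the 4 classes of every library, had 10 UMIs among the marker-negative cells of the library labelled Tbx1neo2/neo2, which the comparisons do not use. The UMIs lay in 9 cells with a median of 41677 UMIs, of which 8 held at least 3 genes of the skeletal muscle list and 3 held at least 3 genes of the smooth muscle list.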

How the results depend on the processing

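No paired analysis was possible because each group has 1 library. Over 58 log2 ratios of single genes, 680 alternative values were computed, of which 560 moved by less than the counting interval, 635 kept their sign and 4 called values reversed: in female cells alone Hoxb5 in mesenchyme (-0.36) and Hoxb4 in epithelium (-0.75) and in male cells alone Hoxb5 in epithelium (0.055), all for the Tbx1neo2/neo2-labelled library, and in male cells alone Hoxc5 in mesenchyme (-0.22) for Foxn11089/1089. The cause of the shifts was not tested.

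In Pdgfra-positive cells the summed log2 ratio of the Tbx1neo2/neo2-labelled library was 0.75 as reported, 0.84 with 1 marker UMI, 0.88 with classes by panels, 0.69 without cells of other tissues, 1.04 in male and 0.51 in female cells, and 0.47 with size factors. That of Foxn11089/1089 was 0.35, and 0.45 by panels, 0.81 in female cells and 0.21 with size factors. Members 2-fold higher numbered 11 of 18 in the former (17.4% of all genes), 4 of 12 in female cells (17.3%) and 4 of 10 with 30 control UMIs (8.89%). In the latter they numbered 2 of 18 (7.44%), 5 of 12 in female cells (12.8%) and 1 of 10 with 30 control UMIs (3.31%). Members 2-fold lower numbered 0 of 18 in the former (4.78%) and 1 of 19 where each library needed 1 UMI (9.64%). In the latter they numbered 4 of 18 (5.81%). They were 2 of 18 with equal cell weights (5.7%) or by panels (5.31%), 2 of 16 with a minimum of 100 UMIs (3.58%) and 1 of 13 after thinning (3.45%). They were 0 of 12 in female cells (4.48%) and 0 of 10 with 30 control UMIs (3.43%). Groups 6 to 13 made up 0.192% in the control (1.03% in male cells, 0% in female cells and after thinning), 4.94% in the Tbx1neo2/neo2-labelled library (5.63% with equal weights, 5.27% by panels, 5.69% without other tissues, 0.130% in female cells, 6.48% after thinning) and 0.105% in Foxn11089/1089 (0.0444% after thinning).

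In Epcam-positive cells the summed ratio of the Tbx1neo2/neo2-labelled library was 0.42, and 0.52 in male cells, 0.55 in female cells and after thinning, 0.19 in thymic list cells and 0.070 with size factors. That of Foxn11089/1089 was 1.22, and 1.14 with equal weights, 1.15 by panels, 1.36 in male and 1.11 in female cells, 1.12 after thinning and 0.98 with size factors. Members higher in the former numbered 5 of 13 (17.3% of all genes), with 2 of 9 in female cells (14%) and 3 of 10 in thymic list cells (15.1%). They were 3 of 11 with a minimum of 100 UMIs (16%), 8 of 18 with a minimum of 10 UMIs (18.6%) and 1 of 7 with 30 control UMIs (13.1%). Members lower numbered 1 of 13 (6.27%) and 2 of 18 with a minimum of 10 UMIs (8.58%). They numbered 0 with 1 marker UMI, by panels, in male cells, in thymic list cells, after thinning or with 30 control UMIs. In these settings 3.87% to 6.01% of all genes were lower. In Foxn11089/1089 7 of 13 were higher (9 of 13 with 1 marker UMI or by panels, 9 of 12 in male cells, 10 of 18 with a minimum of 10 UMIs, 5 of 9 in female cells, 5 of 8 after thinning, 5 of 11 with a minimum of 100 UMIs, 4 of 7 with 30 control UMIs). Of all genes, 12.2% to 19.2% were higher over these settings. Members lower numbered 1 of 13 (8.87% of all genes) and 2 of 17 where each library needed 1 UMI (12.9%). Groups 6 to 13 made up 12.7% in the control (14.1% with 1 and 10.8% with 3 marker UMIs, 15.7% with equal weights, 14.8% by panels, 7.51% in male and 8.99% in female cells, 14.5% in thymic list cells, 14.9% after thinning), 17.0% in the Tbx1neo2/neo2-labelled library (21.2% with equal weights, 19.8% without other tissues, 15.1% in male and 22.1% in female cells, 24.6% in thymic list cells, 18.3% after thinning) and 1.52% in Foxn11089/1089 (1.13% in female cells).

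The summed ratio in Cdh5-positive cells of the Tbx1neo2/neo2-labelled library was 0.78, and 0.43 with size factors. In Ptprc-positive cells it was 0.65, with 0.32 by size factors and 1.88 after thinning, and for Foxn11089/1089 0.72, with 1.91 after thinning. The thinned values also rest on other cells, since classes were called again from the thinned UMIs. The limit on 2000 UMIs per cell, the mitochondrial limit of 10% and leaving out the highest Scrublet scores moved none of these summed ratios or shares past the counting interval. They moved a count of members by at most 1. Without the highest Scrublet scores 3 of 18 were lower in Foxn11089/1089 mesenchyme (4.9% of all genes) and 8 of 13 higher in its epithelium (17.5%). With the mitochondrial limit of 10%, 8 of 13 were higher in that epithelium (17.6%). Endothelial values rest on 95 control UMIs, and a gene at 0 UMIs in control mesenchyme may be present at up to 0.43 CPM.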

Other observations

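Cells with none of the 4 markers also held Hox transcripts, at 107, 369 and 286 CPM in the control, Tbx1neo2/neo2-labelled and Foxn11089/1089 libraries. In the Tbx1neo2/neo2-labelled library the 104 of these cells led by the cartilage list held all Hox genes at 944 CPM and Hoxa5 at 404 CPM, above the 311 CPM of Hoxa5 in its Pdgfra-positive cartilage list cells. The 80 cells led by the skeletal muscle list held Hoxa10, a trunk and limb gene, at 29.8 CPM (82 UMIs) and Hoxa5 at 22.2 CPM.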
